A study of Mus musculus with 10 samples.

Results

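The 3 lines grown from lung metastases of the 4T1-hHER2 mouse mammary carcinoma model were set against the 6 lines from fat pad tumours and from blood, pooled, and the genes described are those for which all 3 lung lines lay above, or all 3 lay below, the other 6. These genes number 753 of the 19936 tested, with 369 higher and 384 lower in the lung lines. That is 1.85% of genes above and 1.93% below, 3.78% in all. The split depends on scaling: it was 516 higher and 264 lower with libraries scaled to totals without mitochondrial genes, and 471 and 298 with upper-quartile scaling. The 3 lung lines are 3 of the 10 lines of the series, and each line has 1 RNA-seq library. A gene enters by its own values, so its separation is a description and carries no test.

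All 10 lines carry human HER2, the receptor tyrosine kinase encoded by ERBB2, and luciferase from a lentivirus. The parental line, 4T1-hHER2, has the strain label BALB/cfC3H, and the 9 derived lines have the host strain label NOD-SCID-GAMMA, immunodeficient mice that lack T, B and NK cells. The host still has myeloid cells, a limit on what the model says of immunity. The derived lines are primary 5, 7 and 8 (fat pad xenograft), CTC 1, 3 and 6 (circulating tumor cell) and metastasis 5, 3 and 7 (lung metastasis), each called by its group and its title's number. The labels trace the lung lines to circulating tumor cells of mice that had been inoculated orthotopically. Host age and whether a line is 1 clone were not found in the labels. Nothing in the labels says what a number stands for. The number 5 and the number 7 occur in a primary and a lung line, and the number 3 in a CTC and a lung line. Since each line was sequenced once, p-values speak to the spread among these lines alone, and RNA of cultured lines does not report on cells as they were in the tumour, the blood or the lung.

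Several families of genes come up below. Pelota, encoded by Pelo, works with Hbs1 to take apart ribosomes that have stalled on an mRNA. Mitosis is run by kinases such as Aurora A and Polo-like kinase 1, by kinesin motors and by the midzone protein Prc1, and many of these genes peak together in the late phases of the cell cycle. Replication-dependent histone genes lie in clusters, are used in S phase, and give mRNAs that end in a stem-loop in place of a poly(A) tail. The mitochondrial genome is transcribed from both strands into long precursors, from which rRNAs, mRNAs and tRNAs are cut.

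Libraries held 79869760 to 97722716 estimated counts, of which 19.7% to 22.8% lay in assembled transcripts tied to no gene. Levels are CPM (counts relative to library size, scaled with TMM factors), and log2 changes compare the lung lines with the mean of the primary and the CTC group. Mouse Erbb2 stood at 42.6 to 60.3 CPM in the lung lines and at 25.9 to 52.6 CPM in the other 6, and the human insert is outside the mouse annotation and was not analysed here. The 6 carcinoma cell markers summed to 1224 to 2945 CPM in the lung lines and 1485 to 3283 CPM in the others. Of 12 lung epithelial markers, 6 were at 0 in every library, among them the surfactant genes Sftpa1, Sftpc and Sftpd, and the list summed to 15.6 to 42.8 CPM against 7.16 to 45.1 CPM, with Aqp5 giving up to 43.7 CPM of it. Ager, 1 of the 12, lay above the 6 in all lung lines at low levels (1.67, 0.969 and 1.92 CPM against 0.244 to 0.920 CPM). Leukocyte markers summed to 2.48 to 3.20 CPM against 0.934 to 5.92 CPM, with Cd3e and Nkg7 at 0 everywhere and Ptprc at or below 0.232 CPM.

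The quasi-likelihood test of edgeR, adjusted by Benjamini-Hochberg over all 19936 genes, called 1 gene (0.00502%). DESeq2 called 101 of the 16732 genes to which it gave an adjusted p (0.604%), 31 of them among the 369 higher and 54 among the 384 lower genes, whose choice used the same values. Below, passing the test means edgeR's, and DESeq2's calls are given beside it. The gene lists described below were chosen with earlier results of these data known. The shares of their members beside all genes are thus descriptions and carry no test. At an unadjusted p under 0.05 there were 1257 genes (6.31%), 624 higher (3.13%) and 633 lower (3.18%). Most separations of the 753 genes were narrow. Among the 149 higher and 229 lower genes with an informative symbol and a mean log2 CPM of at least 1, the nearest lung line and the nearest other line were a median of 1.067-fold and 1.087-fold apart. The values were at least 1.5-fold apart for 3 of the 149 and 10 of the 229. Of the 753 genes, 507 had an unadjusted p under 0.05, which the choice of the genes makes likely.

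Pelo was the gene that passed. It stood at 0.794, 0.629 and 0.573 CPM in metastasis 5, 3 and 7. It stood at 6.68, 7.92 and 9.20 CPM in primary 5, 7 and 8 and at 7.79, 10.2 and 8.11 CPM in CTC 1, 3 and 6. The parental line was at 10.2 CPM, with the 6. The 3 lung lines sat close together and the lowest of the others was 8.41-fold above the highest of them, the widest gap of the 378 separated genes with an informative symbol and a mean log2 CPM of at least 1. Pelo fell by 3.64 on the log2 scale (SE 0.334, adjusted p 0.0304), from 8.32 ± 1.23 (SD, n = 6) to 0.665 ± 0.115 CPM (SD, n = 3). Against the primary lines alone the log2 change was -3.57 and against the CTC lines alone -3.71. These contrasts share the lung lines. Between lines of the same number it was -3.03 for number 5, -3.73 for number 7 and -3.96 for number 3.

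Pelo (ENSMUSG00000042275.9) lies at chr13:115088355-115090186 of GRCm38, minus strand. Its exons overlap those of Gm49395 on the same strand and of Gm10734 on the opposite strand, and whether reads were counted by strand was not found in the labels, so the count is uncertain. Gm49395 was at 0.0136 to 0.838 CPM in the lung lines and up to 2.48 CPM in the others, and Gm10734 was at or below 0.262 CPM everywhere, and neither separated the groups. The call was lost whichever 1 of the 9 derived lines was left out (adjusted p from 0.0703 without primary 5 to 0.268 without metastasis 5), while the log2 change stayed between -3.78 and -3.54 in all 22 alternatives. With the replicate number as a fixed block, which pairs lines of the same number, the adjusted p was 0.596 over the 3 pairs and 0.558 over the 9 derived lines. With the number as a random block in limma-voom it was 0.0042.

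The other 22 tested genes of ribosome rescue and quality control held no other call. Ankzf1, which encodes a factor that releases nascent chains from split ribosomes, was the 1 other member outside the range of the 6, and it was higher. Its levels were 17.9, 19.7 and 21.5 CPM in metastasis 5, 3 and 7 against 6.36 to 16.8 CPM (median 12.3) in the 6, a log2 change of 0.73 (SE 0.32, adjusted p 0.773). Its exons overlap Atg9a and Glb1l on the opposite strand. Of the 23 tested members, 1 lay below and 1 above the 6, 4.35% each beside 1.93% and 1.85% of all genes. The median log2 change of the 23 was -0.05, beside 0.01 over all tested genes.

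**Figure D1:**
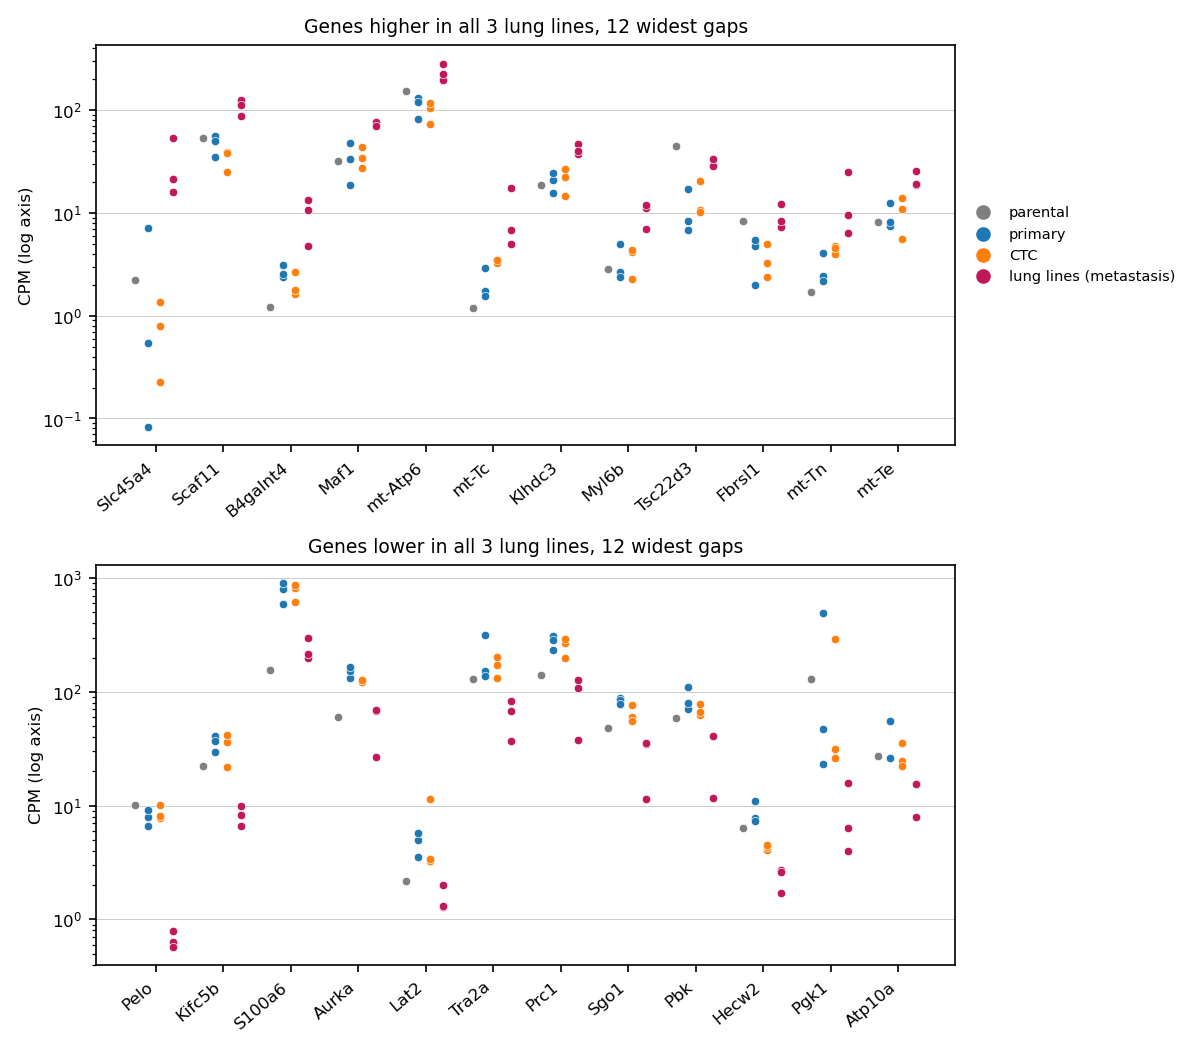
CPM on a log axis for the 12 genes with the widest gap in each direction, among those with a mean log2 CPM of at least 1 and an informative symbol (upper panel higher, lower panel lower in the lung lines), 1 point per line, coloured by group. The lung lines stand apart most for Pelo (0.573 to 0.794 CPM against 6.68 to 10.2 CPM), while for S100a6 the parental line (156 CPM) lies below the lung lines and for Tsc22d3 (45.0 CPM) above them.

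After Pelo, among genes with a mean log2 CPM of at least 1 and an informative symbol, those with the widest gap below the others were Kifc5b, S100a6, Aurka, Lat2, Tra2a, Prc1, Sgo1, Pbk, Hecw2, Pgk1 and Atp10a. None of them passed with edgeR, while DESeq2 called all of them except Pbk, with adjusted p from 3.66e-09 (Kifc5b) to 0.0428 (Lat2). S100a6, a calcium-binding protein gene of the S100 family, was at 299, 199 and 216 CPM in metastasis 5, 3 and 7. It was at 795, 596 and 897 CPM in primary 5, 7 and 8 and at 820, 867 and 613 CPM in CTC 1, 3 and 6. The groups were 1.99-fold apart at their nearest, and the parental line (156 CPM) was below all 9 derived lines. The log2 change was -1.68 (SE 0.244, adjusted p 0.387), similar against primary (-1.68) and against CTC (-1.69). S100a6 was called with the replicate number as a random block in limma-voom (adjusted p 0.0369). Without a block, limma-voom gave 0.2, no call. A fixed block in edgeR did not call S100a6 either. The adjusted p there was 0.596 for the 3 same-number pairs and 0.558 for all 9 derived lines. S100a6 was the 1 of 12 tested S100 genes that separated (8.33% below, beside 1.93% of all genes). The median log2 change of the 12 was -0.71. By line the median was -0.50, -0.19 and -1.37 in metastasis 5, 3 and 7, so it leans on metastasis 7. In the transcript table, S100a6-201 and S100a6-203 lay below the 6 in all 3 lung lines and S100a6-202 and S100a6-204 overlapped, and these rest on the same reads as the gene.

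Tra2a, which encodes a splicing regulator with RS domains, was at 67.7, 82.95 and 37.3 CPM in metastasis 5, 3 and 7. The 6 others ran from 131 to 317 CPM with a median of 162 CPM, and the parental line was at 129 CPM. The log2 change was -1.56 (SE 0.377, adjusted p 0.773). Of the 25 tested SR proteins and splicing kinases, 3 were lower (Tra2a, Srsf1 and Srsf9) and 1 was higher (Scaf11), 12% and 4% beside 1.93% and 1.85% of all genes, and the list's median was -0.20. Srsf1, an SR protein of constitutive and alternative splicing, was at 252, 221 and 209 CPM against 270 to 743 CPM (log2 change -0.90, SE 0.397), and it overlaps Gm11508 on the opposite strand. Srsf9 was close to the edge, with 106 to 109 CPM against 110 to 161 CPM. Scaf11, another RS-domain protein gene, went the other way and is described with the higher genes.

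Lat2, an adaptor of immune receptor signalling, was low in all lines, at 1.28, 2.003 and 1.32 CPM in the lung lines against 3.23 to 11.4 CPM, and it shares exons with Rfc2 on the opposite strand. Hecw2, a ubiquitin ligase gene, was at 2.72, 2.63 and 1.69 CPM against 4.08 to 10.95 CPM, with CTC lines (4.08, 4.37 and 4.48 CPM) between lung and primary lines (7.85, 7.39 and 10.95 CPM). Atp10a, a phospholipid flippase gene, was at 7.92, 15.5 and 15.5 CPM against 22.4 to 55.9 CPM, and its log2 change was larger against primary (-1.82) than against CTC (-1.09), a difference that was not tested.

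The glycolytic enzyme genes Pgk1, Eno1, Pkm and Gapdh were the 4 of 26 tested glycolysis and hypoxia genes below the 6 in all 3 lung lines (1.93% of all genes were), and none was above. Pkm, pyruvate kinase, was at 1477, 1855 and 2056 CPM in metastasis 5, 3 and 7 against 2415 to 3431 CPM (median 2877), a log2 change of -0.69 (SE 0.184, adjusted p 0.773). Eno1, enolase, was at 1193, 1334 and 1085 CPM against 1461 to 2373 CPM. Gapdh was at 549, 622 and 674 CPM against 705 to 1241 CPM. The parental line was above all lung lines for these 3 genes, at 2361 CPM for Pkm, 1501 CPM for Eno1 and 700.4 CPM for Gapdh. Pkm overlaps Gm49759 and Gapdh overlaps Iffo1, both at 20.5 CPM or less. The list's median log2 change was -0.32, it was -0.02 without metastasis 7, and 7 members lay below the others without metastasis 3, so the median rests on metastasis 7.

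Pgk1, phosphoglycerate kinase, had the largest fitted change of the named genes below the 6 (log2 -4.08, SE 1.34, adjusted p 0.773) and the least even values. It was at 3.98, 15.95 and 6.35 CPM in metastasis 5, 3 and 7. It was at 492, 47.2 and 23.01 CPM in primary 5, 7 and 8 and at 31.7, 292 and 26.3 CPM in CTC 1, 3 and 6. Primary 5 and CTC 3 stood far above the other 4, which were 1.44-fold or more above metastasis 3. No transcript of Pgk1 separated the groups, and the counts sat under different transcripts in these lines. Pgk1-201, the protein-coding transcript, held 499 CPM in primary 5 and 0.159 CPM in CTC 3, and Pgk1-203, annotated as subject to nonsense-mediated decay, held 0.0566 CPM in primary 5 and 299 CPM in CTC 3. Mouse Pgk1 has retrocopies, and reads can be shared with them, so its level is uncertain.

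All 41 tested members of the cell cycle and DNA replication list had a log2 change below 0, with a median of -1.05. Of the 41, 7 lay below the 6 in all 3 lung lines (17.1%, beside 1.93% of all genes), namely Aurka, Plk1, Ccnb1, Rrm1, Bub1b, Mcm3 and Cenpe, and 0 lay above. With edgeR 0 of the 41 passed, and 19 had an unadjusted p under 0.05 (6.31% of all genes had). DESeq2 called Aurka and Plk1, beside 0.604% of all genes with an adjusted p. Of 24 tested kinesins, 5 lay below (20.8%), namely Kifc5b, Kif11, Kif18b, Kif20b and Kif4, and the median was -0.84. With edgeR 0 of the 24 kinesins passed, and 9 had an unadjusted p under 0.05, beside the same 6.31%. DESeq2 called Kifc5b, beside the same 0.604%. Bub1b, Mcm3, Cenpe and Kif4 were outside the rule for named genes and were named after their values were seen.

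Aurka, the kinase of spindle poles, was at 26.5, 67.8 and 69.2 CPM in metastasis 5, 3 and 7. It was at 131, 152 and 164 CPM in primary 5, 7 and 8 and at 128, 122 and 127 CPM in CTC 1, 3 and 6. Metastasis 5 was far below the other 2 lung lines, and the 6 others were within a narrow range. The log2 change was -1.33 (SE 0.317, adjusted p 0.773), and the parental line, at 60.5 CPM, lay among the lung lines.

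Plk1, the kinase of mitotic entry and spindle assembly, was at 24.9, 66.3 and 53.8 CPM against 95.0 to 173 CPM, with the parental line at 35.2 CPM. Gm44985, on the opposite strand of Plk1, was also below the 6, at 0.0655 CPM or less in the lung lines. Prc1, which bundles the central spindle, was at 38.0, 128 and 109 CPM against 200 to 311 CPM, with the parental line at 140 CPM. It overlaps Rccd1 on the opposite strand, which was at 5.58 to 13.5 CPM in the lung lines and 4.48 to 9.27 CPM in the others.

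Kif11, the motor that drives spindle poles apart, was at 27.6, 114 and 63.6 CPM against 118 to 245 CPM. Kif18b, a motor on growing microtubule ends, was at 19.5, 55.2 and 42.0 CPM against 71.4 to 116 CPM, and Kif20b, a cytokinesis motor, at 14.7, 47.3 and 44.3 CPM against 51.5 to 145 CPM. Kifc5b, a minus-end motor gene, had the widest gap of these. It was at 6.62, 10 and 8.33 CPM in metastasis 5, 3 and 7 against 21.97 to 42.0 CPM (median 36.8), a log2 change of -2.06 (SE 0.305, adjusted p 0.387). Its near-identical copy Kifc1 overlapped between the groups (26.3, 71.9 and 48.3 CPM against 50.1 to 102 CPM, log2 change -0.76), so the split of reads between these 2 copies is uncertain.

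Sgo1, which protects centromeric cohesion, was at 11.4, 34.7 and 35.5 CPM in metastasis 5, 3 and 7 against 55.1 to 87.5 CPM. Pbk, a mitotic kinase gene, was at 11.7, 41.0 and 40.5 CPM against 62.0 to 110 CPM. Ccnb1, cyclin B1, was at 49.4, 134 and 82.6 CPM against 158 to 246 CPM, and Rrm1, the large subunit of ribonucleotide reductase, at 56.4, 169 and 176 CPM against 208 to 374 CPM. In each of these genes metastasis 5 was the lowest line.

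The order within the lung lines repeated over the lists. The mean log2 CPM of the 41 cell cycle genes was 4.34 in metastasis 5, 5.31 in metastasis 7 and 6.24 in metastasis 3. It was 6.24 to 6.95 in the primary lines, 6.72 and 6.81 in CTC 1 and CTC 3, but 5.75 in CTC 6, and 5.67 in the parental line. The list means thus overlapped: metastasis 3 was above CTC 6 and level with primary 8. The list's median log2 change was -0.72 without metastasis 5 and -1.54 without metastasis 3. Members below the others numbered 26 without metastasis 3 and 12 without CTC 6. Kinesins below the others numbered 12 without metastasis 3 and 2 when libraries were scaled to totals without mitochondrial genes. Growth rate and culture density are not in the labels, and their part in these levels was not tested.

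**Figure D2:**
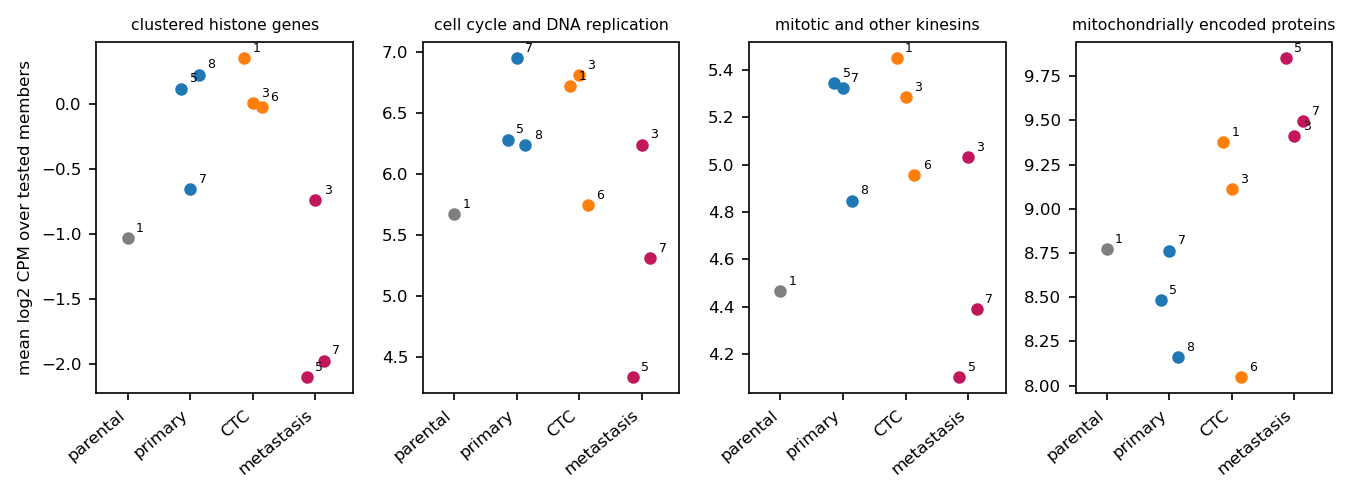
Mean log2 CPM over the tested members of 4 gene lists, 1 point per line with its number, by group. Metastasis 5 is the lowest line for the histone, cell cycle and kinesin lists and the highest for the mitochondrially encoded list, and of the lung lines metastasis 3 lies nearest to the primary and CTC lines in all 4.

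Because the mitotic genes were low together, their promoters were searched for the letters of a pair of elements that are known from cell cycle genes, the CHR element (TTTGAA) and the CCAAT box (CCAAT), on both strands. The windows are RefSeq's for GRCm38.p6, from 250 bases before to 50 after a gene's start, and the motifs may share a base where they abut. The windows shown are those of 5 genes below the 6 in all lung lines in which both motifs were found, printed 5′ to 3′ on the strand of the gene, with matches in capitals (TTCAAA and ATTGG are the same motifs on the opposite strand).
Aurka, chr2:172370521-172370820, minus strand: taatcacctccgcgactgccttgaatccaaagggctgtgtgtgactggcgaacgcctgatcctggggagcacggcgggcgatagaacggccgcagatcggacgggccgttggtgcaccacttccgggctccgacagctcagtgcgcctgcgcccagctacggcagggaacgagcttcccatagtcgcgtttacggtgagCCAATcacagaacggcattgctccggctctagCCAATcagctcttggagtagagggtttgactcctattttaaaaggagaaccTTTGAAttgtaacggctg
Plk1, chr7:122159185-122159484, plus strand: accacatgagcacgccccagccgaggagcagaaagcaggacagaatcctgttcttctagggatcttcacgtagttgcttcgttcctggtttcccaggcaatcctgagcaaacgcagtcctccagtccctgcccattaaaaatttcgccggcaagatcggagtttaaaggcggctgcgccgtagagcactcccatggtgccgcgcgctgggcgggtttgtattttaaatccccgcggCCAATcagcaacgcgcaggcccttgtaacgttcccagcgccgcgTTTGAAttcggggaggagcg
Prc1, chr7:80294201-80294500, plus strand: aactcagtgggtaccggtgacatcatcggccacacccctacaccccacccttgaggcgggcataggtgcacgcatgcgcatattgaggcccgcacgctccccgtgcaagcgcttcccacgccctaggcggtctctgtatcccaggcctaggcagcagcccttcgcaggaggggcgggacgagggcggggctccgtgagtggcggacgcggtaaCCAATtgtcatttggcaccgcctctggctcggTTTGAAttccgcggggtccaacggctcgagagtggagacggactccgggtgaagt
Kif11, chr19:37376132-37376431, plus strand: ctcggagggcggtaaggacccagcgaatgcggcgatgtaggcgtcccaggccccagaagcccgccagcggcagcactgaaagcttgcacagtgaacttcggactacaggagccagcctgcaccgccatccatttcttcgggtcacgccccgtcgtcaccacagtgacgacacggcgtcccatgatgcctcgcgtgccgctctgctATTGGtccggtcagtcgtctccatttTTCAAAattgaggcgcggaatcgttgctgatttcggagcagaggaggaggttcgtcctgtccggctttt
Kifc5b, chr17:26916841-26917140, plus strand: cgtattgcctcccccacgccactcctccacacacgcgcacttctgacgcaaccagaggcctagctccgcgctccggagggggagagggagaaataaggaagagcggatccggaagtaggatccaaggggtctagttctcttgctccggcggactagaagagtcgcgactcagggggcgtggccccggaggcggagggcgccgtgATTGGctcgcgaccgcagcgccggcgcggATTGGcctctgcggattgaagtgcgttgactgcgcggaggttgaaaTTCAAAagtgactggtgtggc
In Prc1, CCAAT began 37 bases and TTTGAA 5 bases before the start shown, and 62 and 30 bases before its other start. In Plk1 CCAAT began 14 bases before the start and TTTGAA 30 bases after it. Aurka had CCAAT 51 and 19 bases before the start and TTTGAA 32 bases after it. Kif18b, not shown, also held both motifs. Not all the low genes did: Ccnb1, Rrm1 and Sgo1 held CCAAT without TTTGAA, and Kif20b held TTTGAA without CCAAT. Both motifs were found for 7 of the 12 cell cycle and kinesin genes that lay below the 6 (58.3%) and for 39.2% of the 51 members of these lists with a window, whether low or not. They were found for 6.28% of the 12006 tested genes with a window and 6.95% of all 32851 windows of this length. The CHR letters, with or without CCAAT, were in 66.7% of the 12 genes, 14.98% of tested genes and 17.9% of all windows. The CCAAT letters, with or without CHR, were in 91.7%, 42.7% and 37.4%. Of the 209 genes below the 6 that have a window, 26.3% held the CHR letters, and of the 182 above, 13.7%. Without the members of those lists, the share below the 6 was 23.9% of 197. Other mitotic genes, Prc1 and Sgo1 among them, are on neither list and stay among the 197. This share is thus not one of genes outside the cell cycle. Of the 60 tested histone genes 0 had a window, so none of these shares covers them. A match is a description of the letters and not evidence that a factor binds.

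Histone genes of the replication-dependent clusters had the largest share below the 6 among the 23 gene lists, which were chosen with earlier results of these data known. Of 30 tested members, 18 were below in all 3 lung lines (60%, beside 1.93% of all genes), 0 were above, and all 30 had a log2 change below 0, with a median of -1.60. With edgeR 0 passed, and 22 had an unadjusted p under 0.05 (6.31% of all genes had). DESeq2 called 7 of the 30, all lower, beside 0.604% of all genes with an adjusted p. With a filter of at least 1 CPM in 3 libraries 6 of the members that were left lay below. Every library had low levels of most of them, since 17 of these 18 had a mean log2 CPM below 0. The examples here were chosen after their values were seen. Hist2h3c1, a histone H3 gene, was at 0.234, 1.35 and 0.232 CPM in metastasis 5, 3 and 7 against 1.74 to 2.94 CPM. Hist1h4d, a histone H4 gene, was at 0.273, 0.183 and 0.300 CPM against 0.618 to 2.35 CPM. Hist1h3b was at 0.0520, 0.445 and 0.286 CPM against 0.842 to 1.62 CPM. Metastasis 3 was the nearest to the others in Hist2h3c1 and Hist1h3b, but not in Hist1h4d.

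The more abundant linker histone gene Hist1h1c did not separate, at 28.8, 47.9 and 12.2 CPM against 13.4 to 90.6 CPM. Over all 60 tested genes with a Hist symbol, a set taken after the values were seen, 35 lay below the 6 and 0 above (median log2 change -1.60). The shares of all genes were 1.93% below and 1.85% above. DESeq2 called 16 of the 60, all lower, beside 0.604% of all genes with an adjusted p. On chromosome 13, which carries the largest histone cluster, 50 of 859 tested genes lay below the 6 (5.82%), and 30 of the 50 are Hist genes. The other 20 came from 807 genes. Histone genes are short and share near-identical coding sequence, so the counts of single members are uncertain. The mean log2 CPM of the list was -2.10, -0.74 and -1.97 in metastasis 5, 3 and 7 and -1.03 in the parental line, against -0.65 in primary 7 and -0.02 to 0.35 in the other 5. The labels give the molecule as polyA RNA and also name a total RNA library kit. Histone mRNAs lack a poly(A) tail, and the part of RNA selection or of the share of cells in S phase in these levels was not tested.

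The mitochondrial genome was the chromosome with the largest share of genes above the 6. All 13 protein genes had a log2 change above 0, with a median of 0.72, and 5 of them, mt-Co2, mt-Atp6, mt-Nd4l, mt-Nd4 and mt-Nd5, lay above the 6 in all 3 lung lines (38.5%, beside 1.85% of all genes). With edgeR 0 of the 13 passed, and 9 had an unadjusted p under 0.05 (6.31% of all genes had). DESeq2 called mt-Atp6, beside 0.604% of all genes with an adjusted p. mt-Atp6, a subunit of ATP synthase, was at 283, 195 and 223 CPM in metastasis 5, 3 and 7. It was at 82.5, 133 and 119 CPM in primary 5, 7 and 8, at 104, 118 and 73.6 CPM in CTC 1, 3 and 6, and at 155 CPM in the parental line. The log2 change was 1.16 (SE 0.237, adjusted p 0.773). It overlaps mt-Atp8 and mt-Co3, which were far more abundant (1322 to 2797 and 675 to 2060 CPM over the 9 derived lines) and did not separate, so its count depends on how reads were shared.

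mt-Nd5, a subunit of complex I, was at 2718, 1854 and 1913 CPM in the lung lines against 753 to 1554 CPM. mt-Nd4l was at 1837, 1331 and 1637 CPM against 487 to 1247 CPM, and mt-Nd4 at 512, 313 and 341 CPM against 158 to 301 CPM. CTC 1 or CTC 3 was the nearest of the 6 in each of these. Metastasis 3 was the nearest lung line to the 6 in all 5 protein genes. Without CTC 1 the count of protein genes above the others was 10 of 13, and scaled to totals without mitochondrial genes it was 8.

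Over the whole mitochondrial genome, 15 of the 32 tested mitochondrial genes lay above the 6 (46.9%, beside 1.85% of all genes) and 0 below, a set formed after the values were seen. DESeq2 called 6 of the 32, beside 0.604% of all genes with an adjusted p. They were mt-Atp6 and the minus-strand tRNA genes mt-Ta, mt-Tn, mt-Tc, mt-Ty and mt-Tp. The 6 tested tRNA genes on the minus strand all lay above, with log2 changes from 1.11 to 1.95 (median 1.89). Of the 11 tested tRNA genes on the plus strand 4 lay above (median 0.99), as did 5 of the 12 plus-strand protein genes (median 0.70) and 0 of the 2 rRNA genes (median 0.33). The strands are those of the annotation. Whether reads were counted by strand is not stated, so reads on these genes may come from precursors of either strand. mt-Tn, the asparagine tRNA gene, was at 25.1, 9.45 and 6.33 CPM in metastasis 5, 3 and 7 against 2.16 to 4.72 CPM, with the parental line at 1.70 CPM. mt-Tc, for cysteine, was at 17.5, 6.89 and 5.02 CPM against 1.55 to 3.49 CPM, and mt-Te, for glutamate, at 25.4, 18.6 and 19.2 CPM against 5.60 to 13.97 CPM. mt-Ta, mt-Tn, mt-Tc and mt-Ty lie next to each other and share a precursor RNA.

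The minus-strand protein gene, mt-Nd6, had the largest log2 change of the genome (2.79, SE 0.92) and overlapped: it was at 1.25, 1.205 and 1.895 CPM in the lung lines, 0.0152 to 0.588 CPM in 5 of the 6 and 1.45 CPM in CTC 1. Without stated strand use, reads of the abundant plus-strand mt-Nd5 cannot be told apart from those of mt-Nd6 where they overlap. mt-Rnr1 and mt-Rnr2, the rRNA genes, overlapped, at 177 to 361 and 415 to 659 CPM in the lung lines against 140 to 400 and 253 to 642 CPM.

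**Figure D3:**
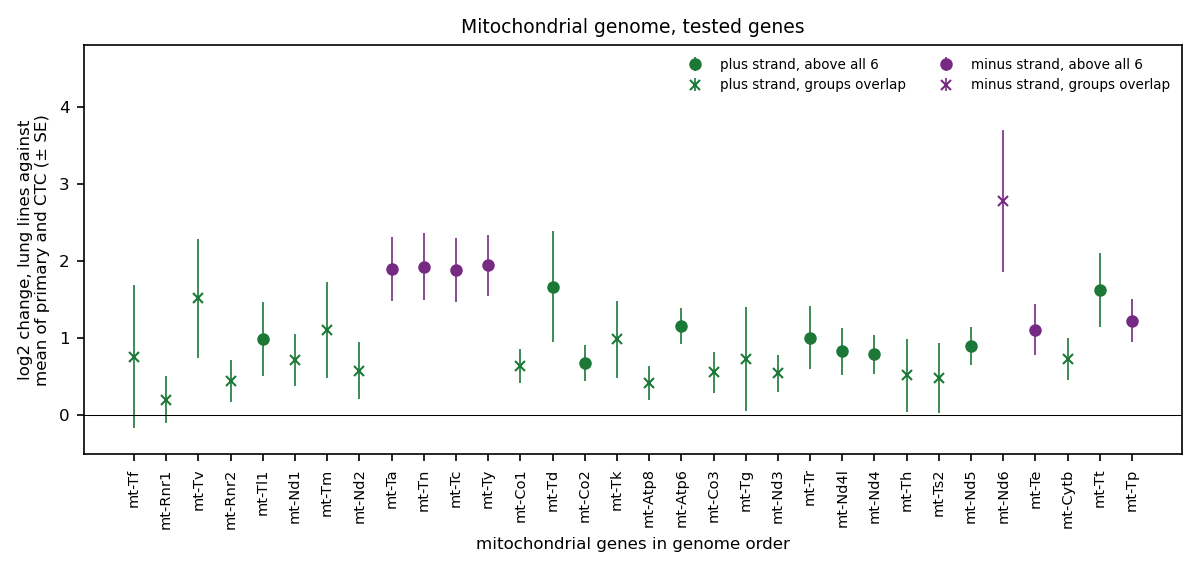
Log2 change of the lung lines against the mean of the primary and CTC groups for the 32 tested mitochondrial genes in genome order, with SE, coloured by annotated strand. Whether reads were counted by strand is not stated. Filled circles are genes with all 3 lung lines above the 6 others, and all 6 minus-strand tRNA genes (mt-Ta, mt-Tn, mt-Tc, mt-Ty, mt-Te and mt-Tp) are among them.

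Mitochondrial genes took 2.34% to 3.14% of named-gene counts in the lung lines, 1.07% to 2.22% in the other 6 and 1.72% in the parental line. Nuclear genes of the same pathway had other values. Of 32 tested nuclear subunits of oxidative phosphorylation, 25 had a log2 change below 0 (median -0.19), 0 lay above the 6 and 1 lay below (3.125%, beside 1.93% of all genes). That gene, Atp5c1, the gamma subunit of ATP synthase, was at 299, 291 and 309 CPM against 318 to 457 CPM (log2 change -0.32, SE 0.177). Of 23 tested regulators of mitochondrial transcription, replication and RNA stability, 0 lay on either side, with a median of -0.05. More mitochondrial genomes per cell, more transcription of each and slower decay cannot be told apart in these libraries. The labels' polyA RNA and total RNA kit bear on mitochondrial RNAs too, tRNAs above all, and the part of RNA selection was not tested.

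Among nuclear genes within the same limits of level and symbol, those with the widest gap above the 6 were Slc45a4, Scaf11, B4galnt4, Maf1, Klhdc3, Myl6b, Tsc22d3 and Fbrsl1. None passed with edgeR, and DESeq2 called all of them except Maf1, Tsc22d3 and Fbrsl1. Slc45a4, a gene of the solute carrier family, was at 53.2, 15.9 and 21.2 CPM in metastasis 5, 3 and 7. It was at 7.11, 0.539 and 0.0825 CPM in primary 5, 7 and 8, at 0.787, 1.36 and 0.229 CPM in CTC 1, 3 and 6, and at 2.24 CPM in the parental line. The lung lines were 2.24-fold or more above primary 5, which stood above the other 5, and the log2 change was 4.40 (SE 1.08, adjusted p 0.773). In the lung lines most of the counts lay in the transcripts Slc45a4-202 and Slc45a4-207, both above the 6.

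Scaf11 (chr15:96411699-96460843, minus strand) was at 125, 113 and 87.8 CPM in metastasis 5, 3 and 7. It was at 56.1, 35.0 and 50.6 CPM in primary 5, 7 and 8, at 25.3, 39.2 and 38.6 CPM in CTC 1, 3 and 6, and at 53.4 CPM in the parental line. The groups were 1.56-fold apart at their nearest, and no other gene overlaps its exons. The log2 change was 1.43 (SE 0.239, adjusted p 0.693). With the replicate number as a random block in limma-voom the adjusted p was 0.0435, a call. Without a block, limma-voom gave 0.423, no call. A fixed block in edgeR left Scaf11 uncalled too, at 0.596 for the 3 same-number pairs and 0.558 for all 9 derived lines. Of its 5 tested transcripts, 1 lay above the 6. This was Scaf11-201, the longest protein-coding transcript, at 113, 99.9 and 48.9 CPM against 18.0 to 39.3 CPM. Scaf11-204, the other protein-coding transcript, overlapped (5.19 to 9.73 CPM against 6.32 to 11.6 CPM). In metastasis 7 these transcripts fell well short of the gene's 87.8 CPM, so they do not account for the whole of its level in that line.

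B4galnt4, a glycosyltransferase gene, was at 13.4, 4.74 and 10.7 CPM against 1.61 to 3.14 CPM, with the parental line lowest at 1.22 CPM. Maf1, a repressor of RNA polymerase III, was even among the lung lines, at 72.9, 76.97 and 70.8 CPM against 18.9 to 48.2 CPM, a log2 change of 1.10 (SE 0.291). Klhdc3, a substrate receptor of a ubiquitin ligase, was at 46.7, 37.4 and 40 CPM against 14.7 to 26.5 CPM. It overlaps Mea1 on the opposite strand, which did not separate (43.3 to 64.8 CPM against 46.4 to 62.5 CPM). Myl6b, a myosin light chain gene, was at 11.3, 7.02 and 12.1 CPM against 2.28 to 4.99 CPM.

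Tsc22d3, a target of glucocorticoids also known as Gilz, was at 29.3, 28.9 and 33.3 CPM against 6.76 to 20.6 CPM, but the parental line, at 45.0 CPM, was above all lung lines. Fbrsl1, which overlaps Gm26711 and Gm42596 on the opposite strand, was at 7.35, 12.2 and 8.38 CPM against 1.99 to 5.47 CPM, with the parental line at 8.30 CPM, among the lung lines. For these 2 genes the lung lines were thus on the side of the parental line.

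The Wnt list had 2 of 31 tested members above the 6 (6.45%, beside 1.85% of all genes) and 0 below, with a median of 0.37. Porcn, the acyltransferase that lipidates Wnt proteins for secretion, was at 20.9, 9.81 and 5.36 CPM in metastasis 5, 3 and 7 against 1.91 to 4.03 CPM, a log2 change of 1.86 (SE 0.414, adjusted p 0.773). Lrp6, a Wnt co-receptor, was at 114, 112 and 131 CPM against 71.8 to 106 CPM, and the parental line, at 129 CPM, was among the lung lines. No Wnt ligand was among the 2, and of this list DESeq2 called Porcn alone (adjusted p 0.0127).

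Of 25 tested integrin and focal adhesion genes, 1 lay above the 6 and 1 below, 4% each beside 1.85% and 1.93% of all genes. Itgb5, integrin beta 5, was at 412, 188 and 214 CPM against 78.0 to 178 CPM (log2 change 0.98, SE 0.323), with metastasis 5 well above the other lung lines. Ilk, integrin-linked kinase, was at 135, 115 and 89.7 CPM against 136 to 162 CPM (log2 change -0.37, SE 0.195). Metastasis 5 was nearly level with CTC 3 for Ilk, and Ilk overlaps Rrp8 and Taf10 on the opposite strand.

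The matrix list had 3 of 34 tested members above the 6 (8.82%, beside 1.85% of all genes), Bgn, Col5a2 and Col3a1, and a median of 0.60, or 0.17 without metastasis 5. Their levels were very low: the highest lung line had 1.54, 1.13 and 0.325 CPM. All 3 were at 0 in all CTC lines and in the parental line. Mmp2, a gelatinase, was at 2.67, 1.41 and 1.40 CPM against 0.449 to 1.21 CPM, a log2 change of 1.27 (SE 0.439). Mmp2 is on the mesenchymal list and the list of genes reported in lung-seeking breast cancer lines. On each list it was the 1 of 21 tested members above the 6 (4.76%, beside 1.85% of all genes). Col3a1 is also a fibroblast marker, and the fibroblast markers summed to 77.1 to 429 CPM in the lung lines and 213 to 463 CPM in the others, with Gsn giving up to 383 CPM. The part of other cell types in these low levels was not tested. The remaining 20 tested lung-seeking genes did not separate, and the list's median was -0.03. DESeq2 called 1 gene of that list, Postn, which was lower (log2 change -4.80, adjusted p 0.00116). Of the matrix list it called Postn and Bgn, the latter higher (log2 change 6.33, adjusted p 0.0056). Bgn, Col5a2, Col3a1 and Mmp2 were below the level set for named genes and were named after their values were seen. Postn, which did not separate, was also named after its values were seen.

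The other 9 of the 23 lists had no member on either side. They were the regulators of the mitochondrial genome, small structural RNAs, nuclear long noncoding RNAs, the MYC network, epithelial adhesion, cholesterol synthesis, interferon-stimulated genes, MHC class I and the amino acid and ER stress response. Epcam, an epithelial adhesion protein gene, was at 21.9, 30.0 and 47.0 CPM in the lung lines against 15.7 to 204 CPM, and Krt8 at 114, 1232 and 318 CPM against 147 to 901 CPM. The epithelial list's median was -1.51 against primary and -0.14 against CTC lines. DESeq2 called 1 of its 31 tested members, beside 0.604% of all genes with an adjusted p. This was Afdn, which was lower (log2 change -1.94, adjusted p 0.0273). Afdn was named after its values were seen. For interferon-stimulated genes 33 of 36 had a log2 change below 0 (median -0.72), yet 0 lay below the 6.

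**Figure D4:**
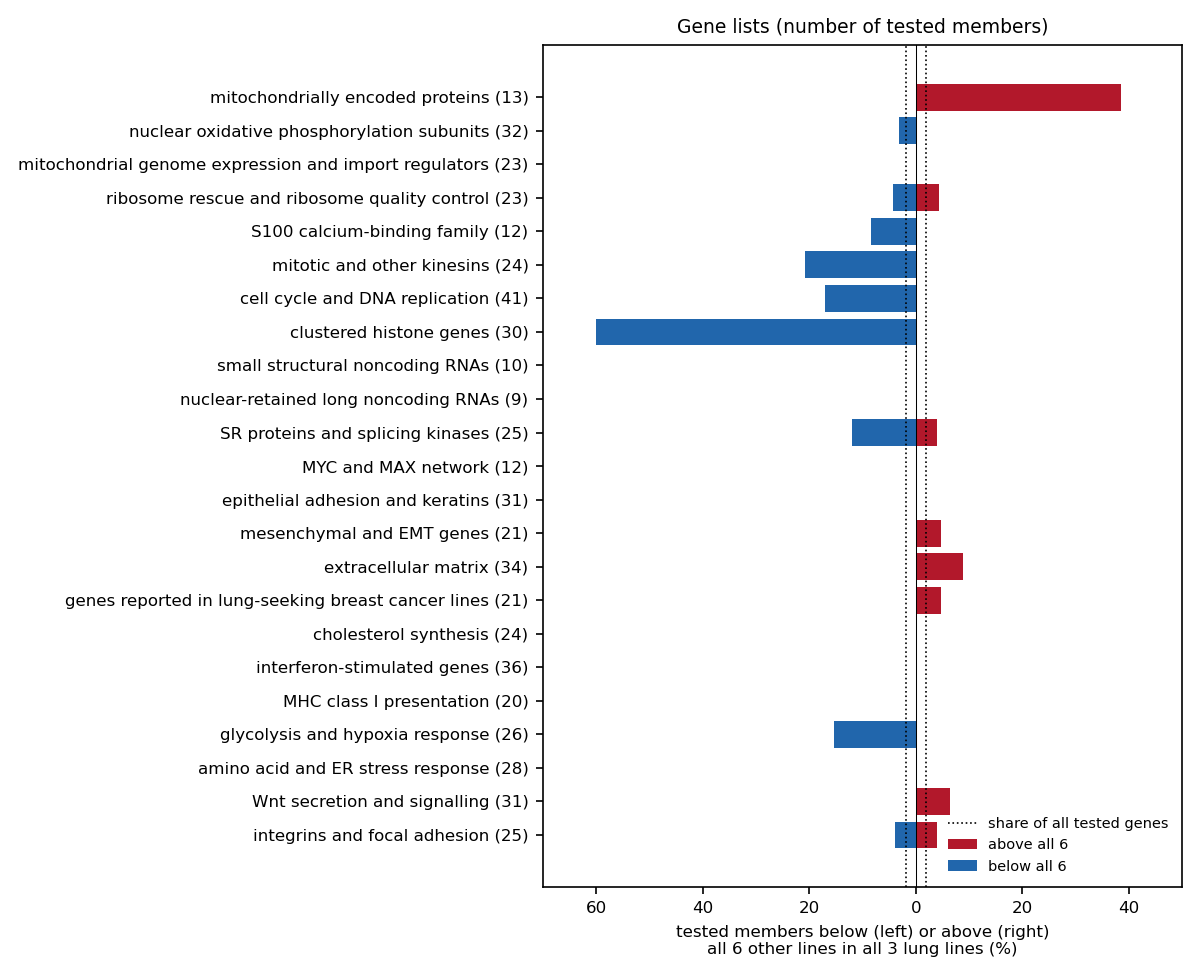
Share of the tested members of each of 23 gene lists that lay below (left, blue) or above (right, red) all 6 other lines in all 3 lung lines, with the number of tested members in brackets. The lists were chosen with earlier results of these data known, so the shares are descriptions. Dotted lines mark the share of all tested genes, 1.93% below and 1.85% above; the longest bars are the histone genes below (60%) and the mitochondrially encoded genes above (38.5%).

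The higher and the lower genes differed in level and kind. Genes above the 6 had a median log2 CPM of 0.18, against 4.52 for those below and 2.50 for all tested genes. Of the 369 higher genes 203 had a mean log2 CPM under 1, and of the 384 lower genes 105. Protein-coding genes made up 58.5% of the higher, 75.3% of the lower and 71.2% of all tested genes. Single-exon genes made up 24.7%, 29.9% and 18.6%. Pseudogenes made up 7.86%, 17.7% and 10.3%. Of 1712 tested processed pseudogenes, 63 lay below the 6 (3.68%, beside 1.93% of all genes) and 20 above (1.17%, beside 1.85%). Their counts can take in reads of their parent genes. Of 969 antisense genes, 29 lay above (2.99%) and 5 below (0.516%). Of 856 genes in the annotation's class TEC of unproven transcripts, 29 lay above (3.39%) and 8 below (0.935%). The part of level in these shares was not tested.

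By chromosome, apart from the mitochondrial genome and chromosome 13, the share above the 6 was highest on chromosome 15 (23 of 777, 2.96%, beside 1.85% of all genes). Slc45a4, Scaf11 and Maf1 lie there. With those also left aside, the share below was highest on chromosome 19 (19 of 630, 3.02%, beside 1.93%) among chromosomes with more than 5 tested genes.

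The parental line, which the choice of genes did not use, was with the 6 for most. For the 369 higher genes it was below all lung lines in 296, within their range in 42 and above them in 31. For the 384 lower genes it was above all lung lines in 289, within their range in 80 and below them in 15. Genes on one side of all 7 other lines thus made up 1.48% of tested genes above and 1.45% below. The genes were chosen to have the lung lines at an extreme, which makes any further line likely to fall with the 6. The place of the parental line is thus a description and lends the separation no support. By the gap to all 7, within the same limits of level and symbol, the leading higher genes were Slc45a4, Scaf11, B4galnt4, Maf1 and mt-Tc and the leading lower genes Pelo, Kifc5b, Tra2a, Hecw2 and Pgk1. Among the named cell cycle genes and kinesins the parental line lay within the lung lines for Aurka, Plk1, Ccnb1, Kif11 and Kif18b. It lay above them for Rrm1, Prc1, Sgo1, Pbk, Kif20b and Kifc5b.

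Which line set the boundary differed. Metastasis 3 was the lung line nearest to the 6 for 152 of the higher and 195 of the lower genes, metastasis 7 for 123 and 129, and metastasis 5 for 94 and 60. On the other side primary 5 was nearest for 97 and 96 genes and CTC 3 for 95 and 101, and primary 8 for the fewest, 26 and 29. At the edge of the rule, Map1s was just inside (lowest lung line 107 CPM, highest other line 107 CPM), as were Lmbr1l and Dcun1d4, and Zkscan1, Mia3 and Ypel5 were just outside. Among the lower genes Ppp1r14b, Zfp948 and Ets1 were just inside and Hist1h4i, Shq1 and Ppp3cb just outside. For Ets1 both edges stood at 285 CPM, and for Hist1h4i both at 1.94 CPM.

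Transcripts gave no further call. Of 61244 tested with edgeR in the same way, 0 passed, with 4028 at an unadjusted p under 0.05, and limma-voom also gave 0. All 3 lung lines lay above the 6 for 1214 transcripts (1.98%) and below them for 1075 (1.76%). Pelo has 1 tested transcript, which lay below the 6. Of the 11 tested transcripts of Maf1, 5 lay above, and of the 5 of Tra2a, 3 lay below.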

How the data were processed

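RNA of 10 cell lines, 1 library each, was sequenced as paired ends, per the labels. The submitters' processing notes name HISAT2 2.1.0, StringTie 2.0.3, DESeq2 1.26.0 and the build GRCm38, without roles or order. The deposited gene and transcript tables hold estimated counts that the authors made from their reads, per the values, which are not normalized. The annotation release and the use of strand are not given in the sources used. Counts were used here as deposited, and were rounded to whole numbers for DESeq2 alone. Of 72544 gene entries, 17126 assembled ones without a gene name were left out, which leaves 55418.

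Genes passing edgeR's filterByExpr by group (19936) were scaled with TMM and fitted with edgeR 4.0.16 (quasi-likelihood, R 4.3.3) over 4 groups including parental, with primary and CTC weighted 0.5 each in the contrast. The residual degrees of freedom were 6 and the common biological coefficient of variation 0.606. Adjusted p (Benjamini-Hochberg) under 0.05 was called, and log2 CPM used a prior count of 2. Adjusted p-values in the report are from this test unless DESeq2 or limma-voom is named. Precision is set by 3 lines a group more than by depth.

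Named genes were the called gene, the 12 per direction with the widest gap between the nearest lines among those with a mean log2 CPM of at least 1 and an informative symbol, up to 4 such members of each of 23 gene lists, label checks, exon-sharing genes and genes at the edge of the rule. The gene lists and the 11 marker lists, like the comparison itself, were chosen with earlier results of these data known. Positions are from GENCODE M21, promoter windows from RefSeq (GRCm38.p6). The fit was run on simulated counts with known changes. Recovery of the changed genes was required only at a spread far below that of these data. The run thus does not show how many would be called at the spread of these data. Alternatives were other scalings and filters, assembled entries kept, each derived line left out, pooled and 3-group fits, replicate blocks, limma-voom (limma 3.58.1) and DESeq2 1.42.0. Whether numbers pair lines was checked by the correlation of deviations from group means: r was 0.319 for number 5, 0.12 for number 7 and 0.406 for number 3, all over 0.1, the limit set for treating numbers as pairs. The labels state no pairing, and 7 of 24 pairs with different numbers had a higher r than number 7, up to 0.506 for CTC 6 and metastasis 7, so the pairing is weak evidence from the data alone.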

Additional observations from a re-analysis of the deposited data

Results flagged for a closer look

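Within the 6 primary and CTC lines, 74 sets of 6 values were examined for a line far from the rest by Dixon's criterion, and 7 had one. Chance alone gives about 1 in 20 for values that were not chosen, but the genes among these sets were chosen by the same values. That rate therefore does not apply to them. A line far towards the lung lines would tend to keep a gene from being chosen, which favours lines far on the other side. Slc45a4 was at 7.11 CPM in primary 5, with the next line at 1.363 CPM, and primary 5 sets how near the others come to the lung lines. Lat2 was at 11.41 CPM in CTC 6 (next 5.786 CPM), Pbk at 110.4 CPM in primary 8 (next 79.28 CPM) and Ppp1r14b at 734.5 CPM in CTC 6 (next 533.4 CPM), all on the side away from the lung lines. Porcn was at 1.907 CPM in CTC 1 (next 3.298 CPM), also away from them. The mean log2 CPM of the histone list was -0.6502 in primary 7, with the next line at -0.01841, on the side of the lung lines. That of the small structural RNAs was 0.8978 in CTC 6, with the next at -0.3479, and CTC 6 is thus the line that stands apart in 3 of the 7.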

How the results depend on the processing

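Genes called (1, Pelo) numbered 0 with no filter, 0 with assembled entries kept and 0 with any 1 of the 9 derived lines left out, where unadjusted p under 0.05 was met by 560 genes (without metastasis 5) to 2010 (without primary 5), against 1257. With the replicate number as a block, edgeR called 0 over the 3 same-number pairs and 0 over the 9 derived lines (1593 and 1535 at unadjusted p under 0.05), and limma-voom with a random block called 5 (Pelo, S100a6, Frs3os, Lncppara and Scaf11; 2312 at unadjusted p under 0.05). limma-voom without a block called 1. DESeq2 called 101 (37 higher, 64 lower, 3204 without an adjusted p). Pelo kept its call in 9 of 22 alternatives and lost it in 13, with an adjusted p of 0.0546 with no filter, 0.182 with assembled entries and 9.07e-42 with DESeq2. Assembled entries gave 2277 at unadjusted p under 0.05, 620 higher and 619 lower. Leaving out 1 line gave 436 to 1471 higher (642 without metastasis 5, 788 without metastasis 3, 1471 without metastasis 7) and 433 to 1208 lower (988 without metastasis 3, 1208 without metastasis 7), where fewer lines have to be passed. A gap of at least 1.5-fold, chosen after seeing the data, left 40 higher and 37 lower. A fit of 9 lines in 2 groups called 1 transcript, against 0. Scaling without mitochondrial genes moved the median of all genes to 0.10 from 0.01. Scaling also set the split of 369 higher and 384 lower genes (516 and 264 without mitochondrial genes, 471 and 298 with upper quartiles). The sign of the log2 change turned in 12 cases over 5 named genes, Krt8 (5 alternatives, -1.07 to 0.77), Mea1 (2), Gm49759 (2), Mien1 (2) and Gm10734 (1), none of which separated the groups or was called. The cause of these differences was not tested.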
